A study of Mus musculus with 21 samples.

Results

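The genes described here were 9 genes of the oligodendrocyte lineage, chosen by gene symbol, and all 9 were present in the table of each experiment, among 33829 genes listed for the pre-treatment experiment and 55385 for the delayed treatment experiment. Mobp, Mbp, Cnp, Mag, Mog and Opalin are the 6 myelin genes among them. Olig2, Pdgfra and Cspg4 are the 3 genes of progenitors and of the lineage as a whole. All 9 passed the filter on low counts in both experiments.

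The data were RNA-seq of the midbrain of 21 male C57BL/6 mice, labelled 6 weeks old, in 7 groups of 3. In the pre-treatment experiment (9 mice), control mice were given ddH2O for 10 days, MPTP mice ddH2O for 5 days and then MPTP for 5 days, and the mice with irisin pre-treatment irisin for 5 days and then MPTP for 5 days. In the delayed treatment experiment (12 mice), the groups were control mice given ddH2O for 10 days, mice given irisin alone (ddH2O for 5 days, then irisin for 5 days), MPTP mice (MPTP for 5 days, then ddH2O for 5 days) and mice with MPTP for 5 days followed by irisin for 5 days. All injections were intraperitoneal, with a daily dose of 30 mg/kg for MPTP and of 200 μg/kg for irisin. MPTP is converted in the brain to a compound toxic to dopaminergic neurons, and irisin is a circulating peptide cleaved from the muscle membrane protein FNDC5. The labels name the midbrain, and the methods describe nigral tissue taken out by hand. The question put to the 9 genes was whether the mRNA of myelin and of its cell lineage differed with MPTP and with irisin given before or after it.

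Oligodendrocytes wrap the axons of the central nervous system in myelin, a stack of lipid-rich membrane held together by proteins such as MBP. They arise from progenitors that carry the receptor PDGFRα and the proteoglycan NG2 (the product of Cspg4), and OLIG2 and SOX10 are transcription factors that set and keep the lineage. As progenitors mature they lower Pdgfra and Cspg4 and raise the myelin genes, with Opalin and Mog among the genes of mature cells. In tissue RNA, fewer cells of a type and less RNA per cell cannot be told apart.

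The promoters of 8 of the 9 genes (10 windows of 300 bases, from 250 bases before to 50 after each annotated start) were matched in RefSeq on GRCm38.p6. Those of the myelin genes Mobp, Cnp, Mog and Opalin are shown. Capitals mark the hexamers ACAAAG and ACAATG on either strand (CTTTGT and CATTGT on the other), a core that SOX factors bind, and the E-box CAGCTG or CATATG, a core that OLIG2 binds. Of all 32851 promoter windows of this length, 28.6% held such a SOX core and 19.8% such an E-box. The Mobp window (chr9:120149492-120149791, plus strand) held 6 matches of the SOX core, Cnp (chr11:100574689-100574988, plus strand) held 1, Mog (chr17:37023349-37023648, minus strand) held 0, and Opalin (chr19:41077064-41077363, minus strand) held 2 and 1 E-box. The matches describe these letters only and are not shown to be bound.
Mobp: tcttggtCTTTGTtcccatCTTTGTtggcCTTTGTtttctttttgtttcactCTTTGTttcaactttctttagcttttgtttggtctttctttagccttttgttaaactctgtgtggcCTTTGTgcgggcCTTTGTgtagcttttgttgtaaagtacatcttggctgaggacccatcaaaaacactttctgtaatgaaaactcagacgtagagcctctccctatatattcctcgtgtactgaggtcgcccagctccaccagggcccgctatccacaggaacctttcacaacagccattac
Cnp: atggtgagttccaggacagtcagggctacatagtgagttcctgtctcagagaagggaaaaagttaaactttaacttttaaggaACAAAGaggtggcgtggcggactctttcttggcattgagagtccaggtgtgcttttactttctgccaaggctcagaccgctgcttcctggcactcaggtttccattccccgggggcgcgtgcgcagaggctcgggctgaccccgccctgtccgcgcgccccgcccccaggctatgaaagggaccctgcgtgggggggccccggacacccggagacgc
Mog: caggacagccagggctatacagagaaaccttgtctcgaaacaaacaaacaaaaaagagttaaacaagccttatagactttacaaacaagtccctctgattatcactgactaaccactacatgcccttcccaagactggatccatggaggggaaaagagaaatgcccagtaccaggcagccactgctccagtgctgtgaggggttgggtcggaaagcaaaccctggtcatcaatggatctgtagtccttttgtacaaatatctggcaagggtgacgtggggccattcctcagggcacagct
Opalin: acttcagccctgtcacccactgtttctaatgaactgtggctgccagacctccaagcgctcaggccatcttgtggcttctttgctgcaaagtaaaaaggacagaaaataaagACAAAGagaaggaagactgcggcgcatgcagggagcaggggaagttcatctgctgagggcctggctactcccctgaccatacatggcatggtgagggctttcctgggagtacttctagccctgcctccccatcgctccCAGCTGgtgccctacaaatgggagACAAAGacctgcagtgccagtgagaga

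Of the windows not shown, Olig2 held 1 SOX core, and those of Pdgfra and Cspg4 held 0. Of the 3 Mag windows, 2 that overlap held 1, which is the same site in both. The E-box was found in the Opalin window alone among the 10. The GC content of the Mobp window was 43.3%, below the 45.7% at the lower quartile of all windows, and that of Mog was 48.3%, that of Opalin 54.3% and that of Cnp 59.7%.

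The mice of the pre-treatment experiment had total counts of 66653781 to 75637604 each, those of the delayed treatment experiment 48843585 to 77203445, so that even Cspg4, the least abundant of the 9 genes, had 809 to 1565 counts in every mouse and Mobp had 167627 to 296436. Control mouse 2 of the pre-treatment experiment stood apart with the largest share of counts from mitochondrial genes (12.9% against 10.6 to 11.9% in the other 8 mice). It also had the highest Mobp, Mbp, Cnp, Mag, Mog and Opalin of its experiment. The main summaries of the myelin genes in that experiment are given with and without it. As a check of the labelled tissue, Th, the rate-limiting enzyme of dopamine synthesis, was between 21.3 and 63.3 CPM (counts scaled to a library of 1000000 after TMM scaling) in every mouse.

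Per length, Mobp, which encodes a small basic protein of compact myelin, was by far the most abundant of the 9 genes. Its median was 389 FPKM (the authors' values, fragments per kilobase of gene and scaled to depth) in the 9 mice of the pre-treatment experiment and 448 FPKM in the 12 mice of the delayed treatment experiment, where it ranked 44 and 49 among all genes by mean FPKM. In the pre-treatment experiment Cnp followed with 116 FPKM, Mbp with 104, Mog with 93.8 and Mag with 77.7, and the ranges of these 4 neighbours over mice overlapped. With delayed treatment, Mbp had 184 FPKM, Cnp 154, Mog 107 and Mag 102, and each again overlapped its neighbour. Opalin, a membrane protein of mature oligodendrocytes, and Olig2 had medians of 15.9 and 15.5 FPKM with overlapping ranges in the pre-treatment experiment. In the delayed treatment experiment Olig2 was at 17.5 to 22.9 FPKM in every mouse and Opalin at 9.23 to 16.1, without overlap. Pdgfra (5.36 and 5.42 FPKM) and Cspg4 (1.01 and 1.59 FPKM) were the lowest, with no overlap between them or with Opalin and Olig2. The tables of the experiments were normalised separately, so levels are compared within each of them.

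**Figure D1:**
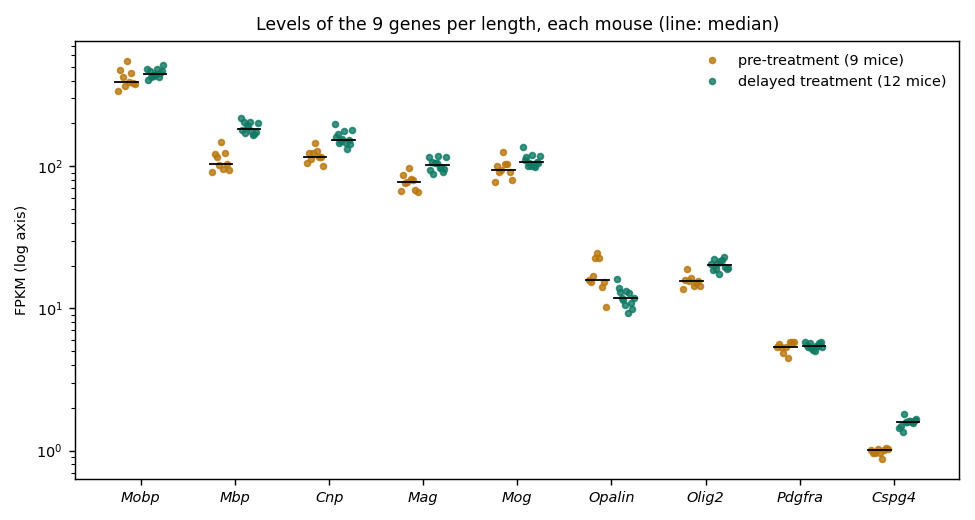
FPKM of the 9 genes in each mouse on a log axis, with 9 mice of the pre-treatment experiment (brown) and 12 of the delayed treatment experiment (green), and lines at the medians. Mobp lies at 339 to 552 FPKM, the other abundant myelin genes at 65.4 to 219, Opalin and Olig2 at 9.23 to 24.4, and Cspg4 at 0.876 to 1.80.

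The genes lie apart in the genome (GRCm38 coordinates as in the tables, whole gene spans). Mobp spans chr9:120149707-120176091, Cnp chr11:100574904-100591729, Mog chr17:37010743-37023398 and Mag chr7:30899176-30914865. Mbp spans chr18:82475146-82585637, Opalin chr19:41061710-41077113, Olig2 chr16:91225457-91228677, Pdgfra chr5:75152292-75198215 and Cspg4 chr9:56865033-56899870. Cnp shares 8912 bases with Dnajc7 on the opposite strand, a gene with a mean of 168 and 158 CPM in the pre-treatment and delayed treatment experiments. Whether the counting used strand is not given in the sources used here, so reads of the shared stretch could belong to either gene. The pseudogene Rpl21-ps8 lies within Mbp on the opposite strand with 36.8 and 20.1 CPM, and Gm38642 shares 2447 bases with Mobp on its strand with 2.09 and 0.895 CPM.

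Across mice, the myelin genes moved together. Over the 15 pairs of myelin genes, Pearson's r of log2 CPM ran from 0.29 to 0.96 (median 0.83) in the 9 mice of the pre-treatment experiment and from -0.13 to 0.93 (median 0.59) in the 12 mice of the delayed treatment experiment. Mobp and Mbp had r = 0.96 in the first, and Mog and Cnp had r = 0.93 in both. The low end came from Opalin: the 10 pairs without it had r of 0.71 to 0.96 and 0.47 to 0.93, and its pair with Mobp had 0.29 and -0.13. Over the 18 pairs of a myelin gene with Olig2, Pdgfra or Cspg4, the median r was -0.01 and 0.00. After the group means were taken out, the median was 0.91 and 0.67 for the myelin pairs, and 0.54 and 0.00 for the mixed pairs. In the pre-treatment experiment the mixed pairs then ran from -0.12 to 0.80, with 0.49 to 0.68 for the 6 pairs with Olig2, 0.24 to 0.80 for those with Pdgfra and -0.12 to 0.24 for those with Cspg4. Without control mouse 2, over 8 mice, the median was 0.67 for the myelin pairs (-0.17 to 0.92) and -0.06 for the mixed pairs, and with the group means taken out as well 0.83 and 0.17. These correlations are descriptions across mice that share a dissection, a library and a treatment group.

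**Figure D2:**
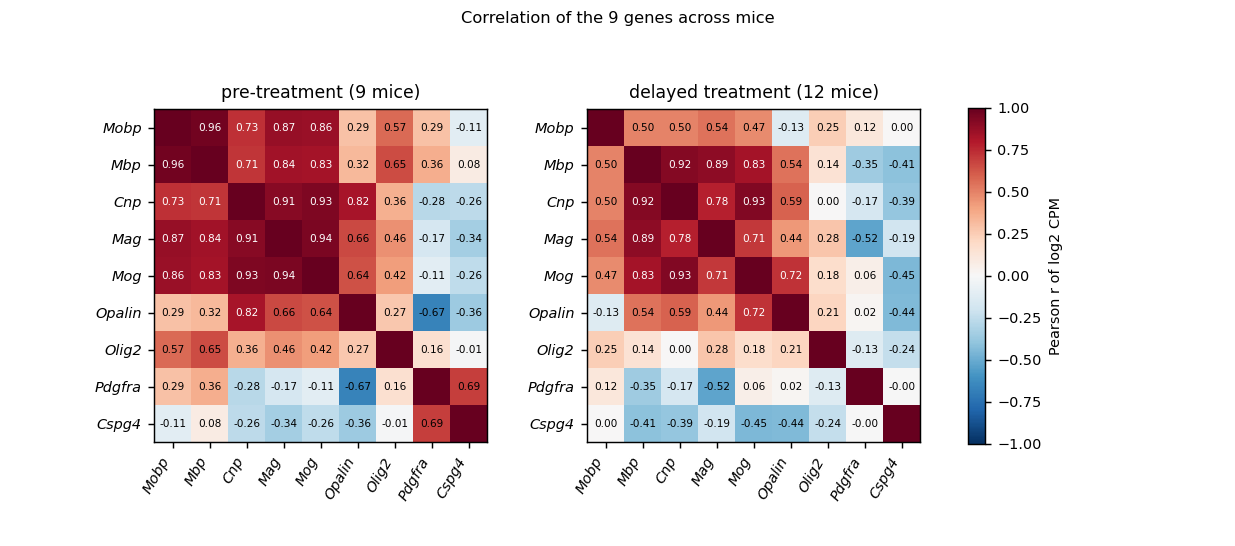
Pearson's r of log2 CPM between the 9 genes across the 9 mice of the pre-treatment experiment (left) and the 12 mice of the delayed treatment experiment (right), red for positive and blue for negative. The myelin genes form a red block (median r 0.83 and 0.59) from which Opalin stands out with r of 0.29 and -0.13 against Mobp, and their pairs with Pdgfra and Cspg4 are mixed in sign.

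The mean log2 CPM of the 6 myelin genes was used to find the genes whose pattern over mice was most like theirs among 15684 genes with a mean CPM of at least 1 in both experiments. Ranked by the smaller r of the 2 experiments, the first 10 included Frmd8 (0.92), Gltp (0.91), Gjb1 (0.91), Lamp1 (0.89), Gna12 (0.89), Cenpb (0.88), Gsn (0.86), Gal3st1 (0.85) and Trp53inp2 (0.84). Gjb1 is the gap junction protein connexin 32 of myelinating cells, and Gal3st1 is the enzyme that makes the myelin lipid sulfatide. Without control mouse 2, r with the myelin mean over the 8 mice left of the pre-treatment experiment was 0.70 to 0.93 for these genes. Of the first 100 genes, 14 were on the lists of oligodendrocyte lineage genes described below, which held 89 of the genes compared. Olig2 ranked 2024 with r of 0.50 and 0.21, while Pdgfra ranked 7173 and Cspg4 ranked 11127, with r below 0 in both experiments. For the mean of Pdgfra and Cspg4 the first 5 of 15688 genes were Vps13b (0.81), Ocrl (0.75), Atrx (0.75), Gm48062 (0.75) and Gm42669 (0.74). Of the first 100 genes for that mean, 1 was on the lineage lists. Pdgfra and Cspg4 themselves had r of 0.69 and -0.002 with each other in the pre-treatment and delayed treatment experiments.

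In the pre-treatment experiment, MPTP mice were compared with control mice, and Opalin showed the lowest values relative to control of all 9 genes. Opalin was at 74.8, 83.1 and 73.7 CPM in the 3 control mice and at 52.7, 50.3 and 57.0 CPM in the 3 MPTP mice (77.2 ± 5.14 against 53.3 ± 3.37, SD, n = 3). Every MPTP mouse was below every control mouse. The log2 fold change was -0.53 (SE 0.14), with an unadjusted p of 0.00484 and an adjusted p of 0.762 (edgeR, quasi-likelihood test, Benjamini-Hochberg over all 22641 tested genes), so the difference did not pass the test. Leaving out each mouse in turn gave log2 fold changes of -0.59 to -0.48.

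Cnp, an enzyme of the non-compact layers of myelin, was at 504, 616 and 514 CPM in control mice and at 431, 498 and 463 CPM in MPTP mice. The groups did not overlap, and the log2 fold change was -0.23 (SE 0.10, unadjusted p = 0.0437, adjusted p = 0.823, edgeR). Mog, a minor surface protein of the outermost myelin layer, was at 179, 248 and 196 CPM in control mice and at 148, 188 and 177 CPM in MPTP mice, which overlap (log2 fold change -0.28, SE 0.15). Mobp was at 2804, 4373 and 2963 CPM in control mice and at 2616, 3599 and 3296 in MPTP mice. Mbp was at 961, 1441 and 894 CPM in control mice and at 871, 1152 and 1112 in MPTP mice. Control mouse 2 was the highest mouse for both, and without it the log2 fold change turned from -0.09 to 0.14 for Mobp and from -0.07 to 0.17 for Mbp. Without that mouse Opalin (-0.48), Cnp (-0.13), Mog (-0.13) and Mag (-0.04) were still negative.

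All 6 myelin genes had a negative log2 fold change in that comparison, with a median of -0.20 against 0.00 over all tested genes. Without control mouse 2, 4 of the 6 were negative and the median was -0.09. Mag, an adhesion protein of the innermost myelin layer facing the axon, had -0.17 (SE 0.13). The 3 other genes had positive values, 0.15 (SE 0.08) for Pdgfra, 0.07 (SE 0.12) for Olig2 and 0.02 (SE 0.09) for Cspg4. Of the 9 genes 0 passed the adjusted threshold of 0.05, against 0.0221% of all genes (DESeq2 also called 0 of the 9), and 2 had an unadjusted p under 0.05, against 6.03% of all genes. The groups did not overlap for 2 of the 9, Opalin and Cnp, against 11.6% of all genes.

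Irisin given before MPTP was compared with MPTP alone in the same experiment, so both comparisons share the 3 MPTP mice. The myelin genes other than Opalin were close to their MPTP values. Opalin was at 47.5, 50.9 and 33.8 CPM in the 3 mice with irisin pre-treatment (44.1 ± 9.07, SD, n = 3), below the control mice without overlap and overlapping the MPTP mice. Its log2 fold change against MPTP was -0.28 (SE 0.14, unadjusted p = 0.0852, adjusted p = 0.873, edgeR). Cnp was at 481, 476 and 411 CPM, Mog at 203, 173 and 154, Mag at 373, 311 and 298, Mobp at 3527, 2937 and 2915, and Mbp at 1203, 986 and 896. The fold changes of these 5 genes against MPTP lay between -0.10 and 0.04 on the log2 scale, each within 1 SE of 0.

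The progenitor genes were tight within the irisin group. Pdgfra, the receptor for the progenitor growth factor PDGF-A, was at 54.4, 62.0 and 49.7 CPM in control mice, at 60.6, 62.5 and 60.7 in MPTP mice and at 66.3, 65.4 and 65.6 in mice with irisin pre-treatment. The irisin mice were above all MPTP and control mice, and the log2 fold change against MPTP was 0.10 (SE 0.08, adjusted p = 0.973, edgeR). Cspg4 was at 13.8, 13.4 and 11.7 CPM in control mice, at 13.6, 12.7 and 13.0 in MPTP mice and at 13.8, 14.1 and 13.7 in irisin mice. Its irisin mice were also above all MPTP mice, by a log2 fold change of 0.08 (SE 0.09). Olig2 was at 43.9, 47.8 and 40.7 CPM in control mice, at 39.3, 44.9 and 54.4 in MPTP mice and at 43.8, 44.1 and 40.7 in irisin mice, with overlap throughout. Of the 9 genes 0 passed the adjusted threshold, against 0.0707% of all genes (0 also in DESeq2), and 0 had an unadjusted p under 0.05, against 6.22%. The groups did not overlap for 2 genes, Pdgfra and Cspg4, against 14.2% of all genes.

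**Figure D3:**
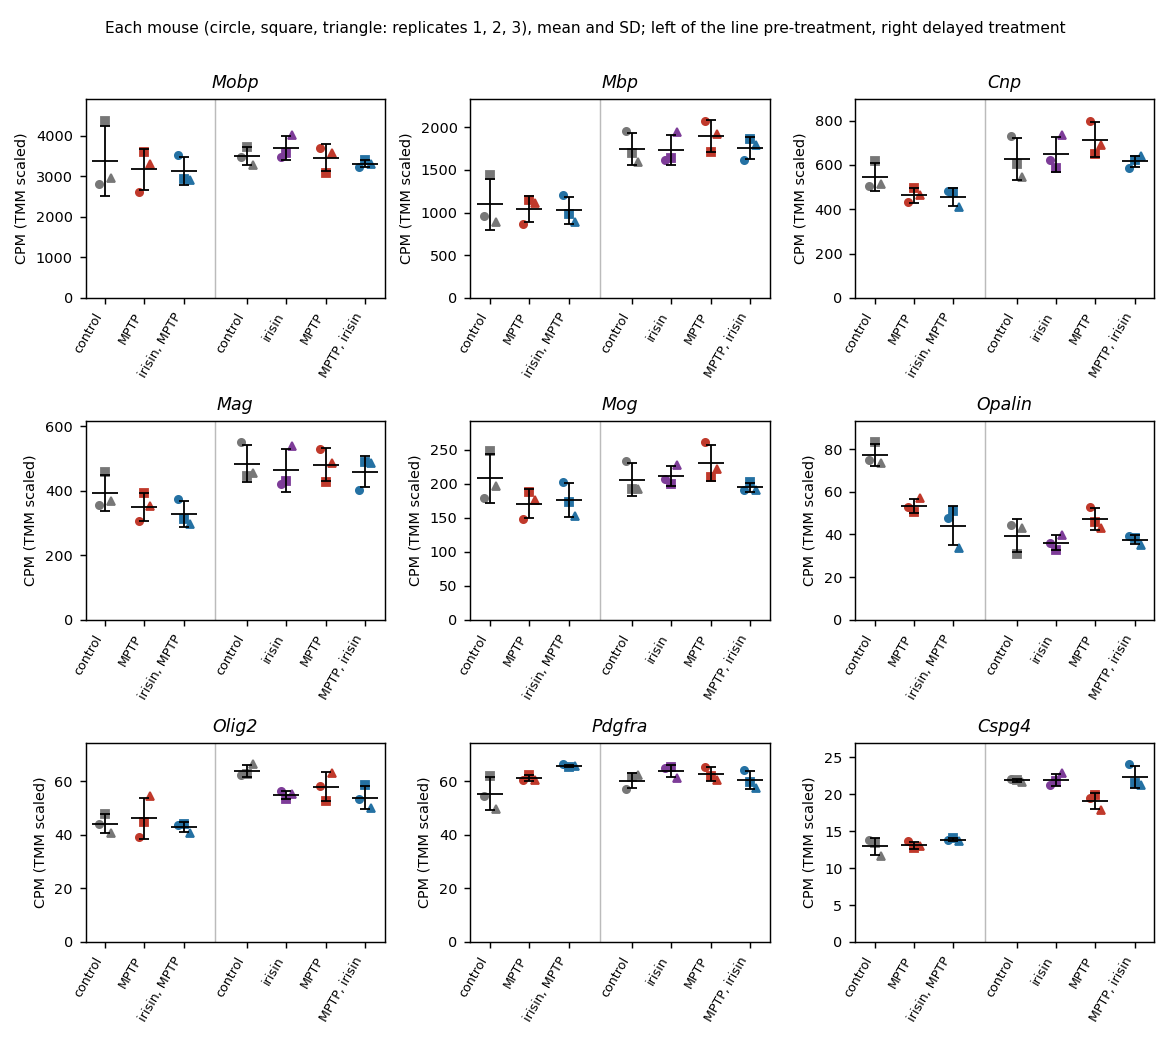
TMM-scaled CPM of the 9 genes in every mouse by group, with the mean and SD of 3 mice as black bars, the pre-treatment experiment left and the delayed treatment experiment right of the grey line, on axes that start at 0. Opalin lies in separate ranges in control (73.7 to 83.1) and MPTP mice (50.3 to 57.0) of the pre-treatment experiment, while most other groups overlap.

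In the delayed treatment experiment the MPTP mice were sampled after 5 further days of ddH2O, and 4 of the 6 myelin genes had higher and 2 had slightly lower values than in control mice. Opalin was at 44.5, 30.8 and 43.3 CPM in control mice and at 53.0, 45.6 and 42.9 CPM in MPTP mice (log2 fold change 0.26, SE 0.14, adjusted p = 0.672, edgeR). Cnp was at 730, 605 and 546 CPM in control mice and at 800, 648 and 690 in MPTP mice (0.19, SE 0.12). Mog was at 234, 193 and 193 CPM in control mice and at 261, 211 and 222 in MPTP mice (0.16, SE 0.10). The ranges overlapped for each of these genes. The share of mitochondrial counts was 7.65 to 7.80% in these MPTP mice and 8.48 to 9.5% in the control mice, and its part in the values was not tested.

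Mbp was at 1954, 1694 and 1591 CPM in control mice and at 2079, 1707 and 1922 in MPTP mice (log2 fold change 0.12, SE 0.10). Mag and Mobp were within 0.02 of 0 on that scale. The median over the 6 myelin genes was 0.14, with 4 positive and 2 negative values. This sign is opposite to that of the pre-treatment experiment, in which MPTP mice were sampled without the further days, and the difference between the experiments was not tested, since they were never fitted together.

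Cspg4 was the gene whose groups did not overlap in that comparison. It was at 22.1, 21.9 and 21.7 CPM in control mice and at 19.5, 20 and 17.9 CPM in MPTP mice (21.9 ± 0.228 against 19.1 ± 1.05, SD, n = 3). The log2 fold change was -0.20 (SE 0.08, unadjusted p = 0.0283, adjusted p = 0.526, edgeR). Pdgfra, which marks the same progenitors, was at 57.1, 61.5 and 62.2 CPM in control mice and at 65.5, 61.9 and 60.5 in MPTP mice, with overlap (0.05, SE 0.06). Olig2 was at 62.2, 62.6 and 66.3 CPM in control mice and at 58.2, 52.5 and 63.2 in MPTP mice (-0.14, SE 0.08). Of the 9 genes 0 passed the adjusted threshold, against 0.132% of all 21922 tested genes (0 also in DESeq2), 1 had an unadjusted p under 0.05, against 8.33%, and 1 did not overlap between the groups, against 16.2%.

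Irisin alone was compared with the same control mice. Olig2, which specifies the lineage and is kept in mature oligodendrocytes, was at 56.3, 53.4 and 55.3 CPM in the 3 mice with irisin alone against 62.2, 62.6 and 66.3 CPM in the control mice (55.0 ± 1.45 against 63.7 ± 2.24, SD, n = 3). Every irisin mouse was below every control mouse. In the same mice the 7 neuronal markers summed to 7136 to 7482 CPM against 7680 to 7889 in control mice, and the 6 astrocyte markers to 2692 to 2726 against 2793 to 2884, also without overlap, and their part in the Olig2 values was not tested. The log2 fold change was -0.21 (SE 0.08), with an unadjusted p of 0.0236 and an adjusted p of 0.519 in edgeR's test, the smallest adjusted p of the 54 tests on the 9 genes. Leaving out each mouse in turn gave -0.23 to -0.18.

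The other 8 genes overlapped between irisin alone and control. Opalin was at 36.1, 32.6 and 39.8 CPM with irisin alone (log2 fold change -0.13, SE 0.14), Cspg4 at 21.2, 21.9 and 22.8 (0.01, SE 0.08) and Pdgfra at 65, 65.5 and 61.2 (0.08, SE 0.06). The 6 myelin genes had a median of 0.01, with 3 values on either side of 0. Of the 9 genes 0 passed the adjusted threshold, against 0.109% of all genes (0 also in DESeq2), 1 had an unadjusted p under 0.05, against 8.97%, and 1 did not overlap, against 15.1%.

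Mice given irisin after MPTP were compared with the MPTP mice of the same experiment, and 4 of the 9 genes did not overlap between these groups, against 10.7% of all genes. Mog was at 191, 203 and 191 CPM with delayed irisin and at 261, 211 and 222 CPM with MPTP (195 ± 6.75 against 231 ± 26.3, SD, n = 3), a log2 fold change of -0.25 (SE 0.10, unadjusted p = 0.0259). Opalin was at 39.2, 38.4 and 35.2 CPM with delayed irisin and at 53.0, 45.6 and 42.9 with MPTP, a log2 fold change of -0.33 (SE 0.14, unadjusted p = 0.0370). Cnp was at 587, 623 and 638 CPM with delayed irisin and at 800, 648 and 690 with MPTP, a log2 fold change of -0.21 (SE 0.12, unadjusted p = 0.0991). Mog, Opalin and Cnp were thus lower in each of the 3 mice with delayed irisin, where they overlapped the control mice. The share of mitochondrial counts was 7.87 to 8.68% with delayed irisin and 7.65 to 7.80% with MPTP, also without overlap, and its part in these values was not tested.

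Cspg4 differed in the other direction. It was at 24.0, 21.6 and 21.3 CPM with delayed irisin and at 19.5, 20 and 17.9 CPM with MPTP, a log2 fold change of 0.22 (SE 0.08, unadjusted p = 0.0149). The mice with delayed irisin overlapped the control mice (21.7 to 22.1 CPM). The comparisons of MPTP with control and of delayed irisin with MPTP share the MPTP mice, so that low Cspg4 and high Mog, Opalin and Cnp in those mice enter both with opposite signs. The adjusted p was 0.9995 for each of the 9 genes in edgeR's test.

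The remaining myelin genes overlapped between delayed irisin and MPTP. Mbp was at 1613, 1867 and 1789 CPM with delayed irisin, Mag at 404, 488 and 487, and Mobp at 3229, 3398 and 3299. All 6 myelin genes had negative log2 fold changes, with a median of -0.16 against 0.00 over all genes. Olig2 was at 53.2, 58.6 and 50 CPM (-0.10, SE 0.08) and Pdgfra at 64.1, 59.7 and 57.6 (-0.05, SE 0.06). Of the 9 genes 0 passed the adjusted threshold, against 0.00456% of all genes (0 also in DESeq2), and 3 had an unadjusted p under 0.05, against 3.90% of all genes.

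Whether irisin acted differently with and without MPTP was tested as an interaction over the 4 groups of the delayed treatment experiment. Mog had the smallest p of the 9 genes, with an interaction of -0.28 on the log2 scale (SE 0.14, unadjusted p = 0.0600, adjusted p = 0.904, edgeR). Cnp had -0.26 (SE 0.17) and Cspg4 0.22 (SE 0.11). All 6 myelin genes had negative values, down to -0.28, with Mag at 0.00 after rounding. Of the 9 genes 0 passed the adjusted threshold, against 0.0411% of all genes (0 also in DESeq2), and 0 had an unadjusted p under 0.05, against 5.57%.

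Over the 6 contrasts, 0 of 54 tests on the 9 genes passed the adjusted threshold and 7 had an unadjusted p under 0.05. Between 3.90% and 8.97% of all genes had such a p in each contrast. The contrasts share mice, so the 54 tests are not independent. The 95% intervals of the log2 fold changes lay between -0.86 and 0.56, so each of the 54 excluded a change of 2-fold or more in either direction. In 47 of the 54 the interval held 0. The SE of the 54 values was 0.06 to 0.20, with a median of 0.11, against a median of 0.20 to 0.29 over all genes in the 6 contrasts. These intervals are not adjusted for the number of genes.

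**Figure D4:**
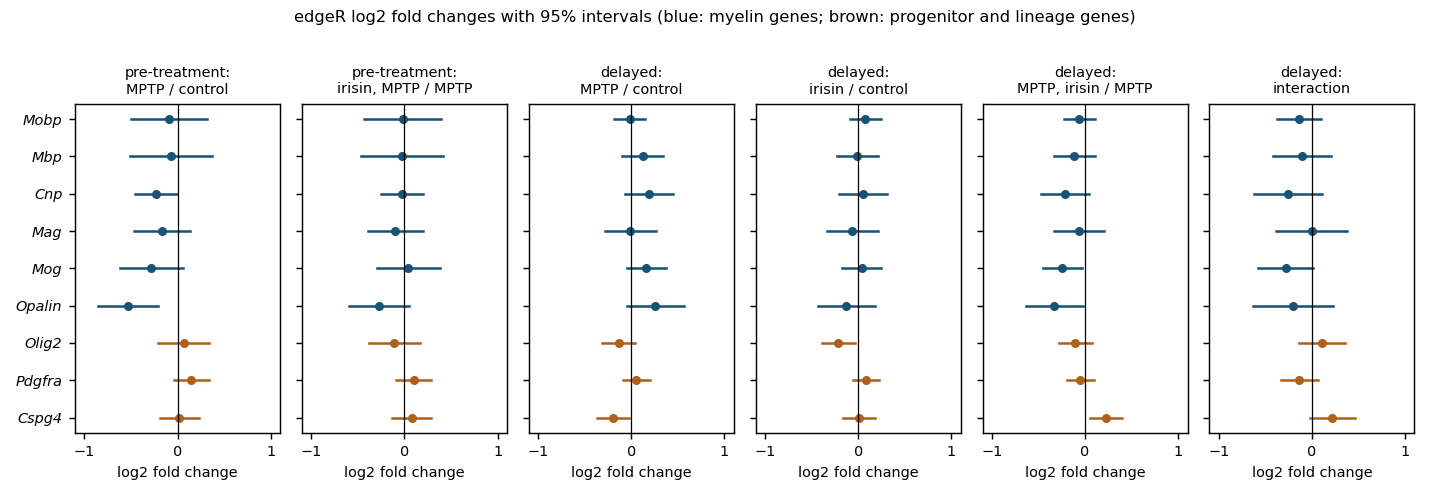
Log2 fold changes of the 9 genes in edgeR (points) with 95% intervals (lines) in the 5 comparisons and the interaction, the 6 myelin genes in blue and the 3 progenitor and lineage genes in brown. Each interval lies between -0.86 and 0.56, and 7 of the 54 do not cross 0, among them Opalin at -0.53 in MPTP against control of the pre-treatment experiment.

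The balance of myelin to progenitor mRNA was described by the mean log2 CPM of the 6 myelin genes minus that of the progenitor genes Pdgfra and Cspg4. It was 4.16 ± 0.18 in control mice, 3.86 ± 0.17 in MPTP mice and 3.70 ± 0.17 in mice with irisin pre-treatment (SD, n = 3), and the irisin mice (3.52 to 3.86) lay below the control mice (3.98 to 4.32) without overlap. In mice of the delayed treatment experiment it was 3.77 ± 0.16 in control mice, 3.72 ± 0.14 with irisin alone, 3.96 ± 0.14 in MPTP mice and 3.70 ± 0.14 with delayed irisin. Every mouse with delayed irisin (3.54 to 3.79) was below every MPTP mouse (3.8 to 4.06), and both overlapped the control mice (3.66 to 3.96). In the pre-treatment experiment, control mouse 2 had the highest balance (4.32). Control mice 1 and 3, at 3.98 and 4.19, were also above every mouse with irisin pre-treatment. The score is a description, with no test.

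Beyond the 9 genes, 90 further genes of the lineage on 7 lists were described, all of which were tested in both experiments. None of the 90 passed the adjusted threshold in any of the 6 contrasts in edgeR, and DESeq2 called 1, 0, 1, 2, 0 and 0 of them in the order of the contrasts above. In the contrasts where DESeq2 called a lineage gene, it called 104, 191 and 158 of all tested genes, against 5, 29 and 24 in edgeR. At an unadjusted p under 0.05 there were 11 of 90 for MPTP against control of the pre-treatment experiment (9 lower and 2 higher in MPTP mice), or 12.2% against 6.03% of all genes. The counts were 7 for irisin pre-treatment (7.78% against 6.22% of all genes), 10 for MPTP in the delayed treatment experiment (11.1% against 8.33%) and 12 for irisin alone (13.3% against 8.97%). They were 3 for delayed irisin (3.33% against 3.90%) and 8 for the interaction (8.89% against 5.57%). The differences between these shares were not tested. Without control mouse 2, the 90 genes were split into 45 higher and 45 lower for MPTP against control of the pre-treatment experiment, where 32 were higher and 58 lower with it. The 3 genes with the smallest p in each contrast are described next.

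Among the other 21 genes of myelin membrane and oligodendrocytes, 2 had an unadjusted p under 0.05 for MPTP in the pre-treatment experiment, against 6.03% of all genes. In that comparison 19 of the 21 had a negative log2 fold change (median -0.18), against 11406 of all 22641 tested genes. Without control mouse 2 that pattern was gone, with 9 of the 21 negative and a median of 0.02. Cldn11, the tight junction protein of myelin, was at 288, 348 and 318 CPM in control mice and at 231, 254 and 267 CPM in MPTP mice (log2 fold change -0.34, SE 0.09, adjusted p = 0.732, edgeR). In the delayed treatment experiment 12 of the 21 were positive with MPTP (median 0.04), and 14 of the 21 negative with delayed irisin (median -0.05). Evi2a had the largest interaction there, 1.95 (SE 0.63), but it shares 4050 bases with Nf1 on the opposite strand and 4030 with Evi2 on its own strand, and reads could be split among them.

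The transcription factors of the lineage gave the smallest p of any lineage gene in the pre-treatment experiment. Nkx2-2, a homeodomain factor that promotes the differentiation of progenitors, was at 10.2, 7.88 and 8.05 CPM in control mice and at 5.28, 4.43 and 4.70 in MPTP mice. The groups did not overlap, and the log2 fold change was -0.86 (SE 0.14, unadjusted p = 0.000250, adjusted p = 0.297, edgeR), a difference that DESeq2 called. It shares 10161 bases with the antisense gene Nkx2-2os, which had a mean of 1.26 CPM. Nkx2-2 was at 5.79, 5.39 and 6.37 CPM with irisin pre-treatment, above all MPTP mice and below all control mice (0.28 against MPTP, SE 0.14). In the delayed treatment experiment it was at 7.56 to 10.9 CPM in control mice and 7.47 to 11.1 in MPTP mice (0.00, SE 0.17). Sox10 was at 58.0, 51.9 and 51.6 CPM in control mice and at 45.2, 45.0 and 41.6 CPM in MPTP mice of the pre-treatment experiment (-0.29, SE 0.08, adjusted p = 0.741, edgeR).

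Hes5, a Notch target that holds back differentiation, was at 3.17, 1.79 and 1.98 CPM in MPTP mice and at 4, 5.75 and 3.87 with irisin pre-treatment (log2 fold change 0.97, SE 0.26, adjusted p = 0.494, edgeR). Jag1, which encodes a Notch ligand, was at 9.68 to 12 CPM in control mice, 7.83 to 8.34 in MPTP mice and 9.82 to 11.5 with irisin pre-treatment. Its log2 fold changes were -0.43 (SE 0.11, adjusted p = 0.747, edgeR) for MPTP against control and 0.42 (SE 0.11, adjusted p = 0.520, edgeR) for irisin pre-treatment against MPTP, which share the low MPTP mice, and the irisin mice overlapped the control mice. Id2, an inhibitor of lineage factors, had -0.30 (SE 0.09) with irisin alone. The 18 transcription factors as a list had medians between -0.04 and 0.10 over the 6 contrasts.

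Of the genes of committed and newly formed oligodendrocytes, Bcas1 varied widely within several groups. It was at 269, 743 and 754 CPM in MPTP mice of the pre-treatment experiment against 244 to 394 in control mice and 256 to 316 with irisin pre-treatment (log2 fold change of irisin against MPTP -1.08, SE 0.35, adjusted p = 0.631, edgeR). In the delayed treatment experiment it was at 281, 621 and 310 CPM in control mice and 627, 347 and 327 with delayed irisin, but at 325 to 363 in MPTP mice. Enpp6, an enzyme of newly formed oligodendrocytes, was at 24.3 to 33.3 CPM in control mice, 33.2 to 41.0 in MPTP mice and 27.1 to 33.2 with delayed irisin in the delayed treatment experiment. Its log2 fold changes were 0.36 (SE 0.13) for MPTP and -0.30 (SE 0.13) for delayed irisin. Bmp4, a signal that inhibits the lineage, had -0.67 (SE 0.25) with delayed irisin, and Fyn, a kinase of oligodendrocyte morphology, had an interaction of 0.22 (SE 0.08). The 8 genes of that list had medians between -0.19 and 0.15.

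The genes of progenitors stayed close to 0 as a list, with medians between -0.09 and 0.04 over the 6 contrasts. For irisin alone, 8 of 8 genes of myelin lipid synthesis had negative values (median -0.27), 2 of them with an unadjusted p under 0.05, where 8.97% of all genes had one. Degs1, the desaturase of ceramide synthesis on that list, was at 76.5 to 140 CPM in the control mice of the delayed treatment experiment, 76.5 to 88.1 in MPTP mice and 74.1 to 84.7 with irisin alone, so that 1 low control mouse overlapped both (log2 fold change -0.53, SE 0.18, and -0.59, SE 0.18). Gal3st1 was at 25.9 to 29.4 CPM in MPTP mice and 21.3 to 23.9 with delayed irisin (-0.30, SE 0.13).

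Of the growth factors, receptors and myelin inhibitors, Nrg1, an axonal signal to myelinating cells, was at 10.5 to 13.7 CPM in control mice and at 16.8 to 31.4 with irisin alone (log2 fold change 1.07, SE 0.26, adjusted p = 0.295, edgeR), a difference that DESeq2 called. Of the genes of the nodes of Ranvier, Kcna1, a potassium channel of the juxtaparanode that neurons express, was at 54.7 to 70.8 CPM in control mice of the delayed treatment experiment. It was at 87.0 to 98.8 in MPTP mice, 81.1 to 106 with irisin alone and 85.6 to 89.1 with delayed irisin, all above the control mice. The log2 fold changes were 0.56 (SE 0.11, adjusted p = 0.149, edgeR) for MPTP and 0.53 (SE 0.11, adjusted p = 0.212, edgeR) for irisin alone, which share the control mice, and DESeq2 called both. The interaction for Kcna1 was -0.64 (SE 0.16, adjusted p = 0.571, edgeR).

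**Figure D5:**
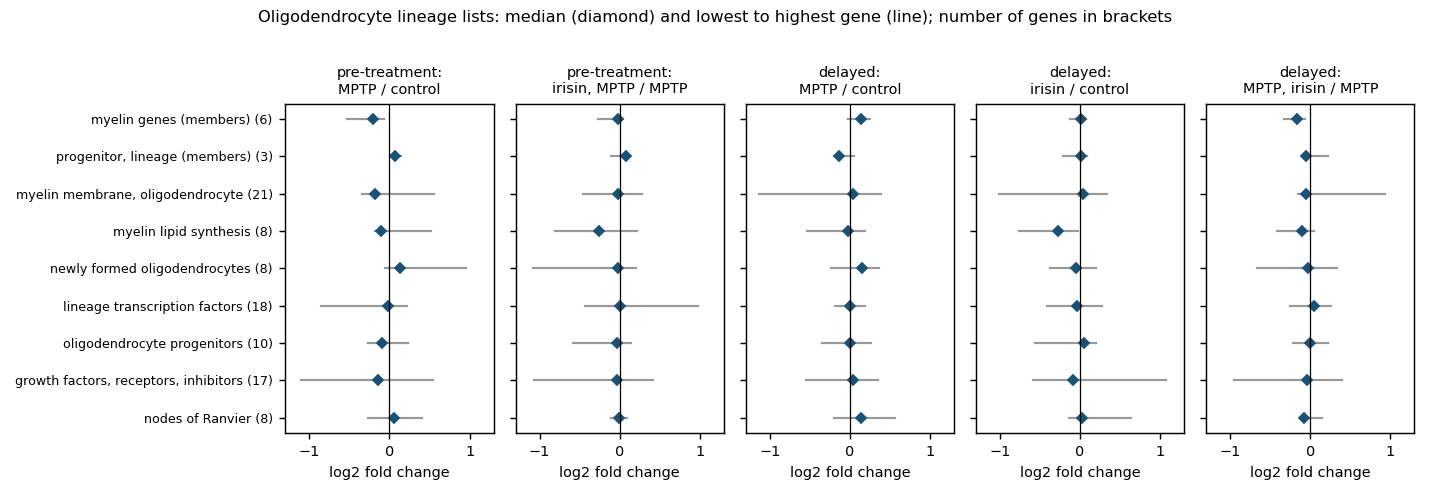
Median log2 fold change (diamonds) and the lowest to highest gene (lines) of the 6 myelin and 3 other genes and of the 7 lineage lists in the 5 comparisons. Medians stay between -0.27 and 0.15, with myelin lipid synthesis lowest at -0.27 for irisin alone.

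The markers of other cell types were read beside the 9 genes, since Pdgfra is also expressed by fibroblasts and Cspg4 by pericytes. The summed CPM of 5 pericyte markers was 269 to 281 in MPTP mice and 250 to 283 with delayed irisin, and 0 of the 5 passed the test. The summed CPM of 5 markers of vascular and meningeal fibroblasts was 111 to 178 in MPTP mice and 64.6 to 151 with delayed irisin, and 5 of 5 had negative log2 fold changes (median -0.31) while Pdgfra was at -0.05. The 7 dopaminergic markers summed to 667 to 701 CPM in control mice and 454 to 578 in MPTP mice of the delayed treatment experiment, where Th had -0.68 (SE 0.14, adjusted p = 0.188, edgeR). In the pre-treatment experiment they summed to 513 to 815 CPM in control mice, 529 to 846 in MPTP mice and 529 to 619 with irisin pre-treatment, where 7 of 7 had negative values against MPTP (median -0.55). Microglial markers summed to 110 to 125 CPM in control mice and 92.7 to 108 in MPTP mice of the pre-treatment experiment, without overlap. Pericyte markers summed to 244 to 249 CPM in MPTP mice and 228 to 235 with irisin pre-treatment, lower without overlap. Taken singly, 3 of the 5 had negative and 2 had positive log2 fold changes in that comparison (-0.17 to 0.17), where Cspg4 had 0.08. With delayed treatment, neuronal markers summed to 7680 to 7889 CPM in control mice and 7250 to 7496 in MPTP mice, and 5 of 5 fibroblast markers had positive log2 fold changes for MPTP (median 0.48). The part of these other cells in the values of the 9 genes was not tested.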

How the data were processed

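RNA-seq was analysed for 21 mice grouped by the sample labels. The authors counted reads per gene with featureCounts and deposited raw counts and FPKM values side by side. Per the labels, the submitters' processing notes name HISAT, StringTie, edgeR and mm9, whereas the gene coordinates match GRCm38 (starts of 9 of 9 genes in GENCODE M21), which was used here. One count column named MPTP1_M was taken as MPTP replicate 1 of the pre-treatment experiment. From the deposited counts, genes kept by filterByExpr (minimum count 10, minimum total 15) were fitted with the two-sided quasi-likelihood test of edgeR 4.0.16 under R 4.3.3 after TMM scaling, with all groups of an experiment in one fit and p-values adjusted over all tested genes by the Benjamini-Hochberg method at 0.05. The steps were tested on simulated counts. CPM were counts scaled to 1000000 by TMM-scaled totals. The deposited FPKM were used for levels between genes only, and for a filter in an alternative. SE was the fold change divided by the square root of F, and the confidence level was 95%. The 9 genes and the lists were chosen with earlier results of these data known. Named beside the 9 genes were the 3 list genes with the smallest unadjusted p in each contrast and the 10 and 5 genes most like the myelin and the progenitor genes. Some genes that the rule names are not reported here. Lhfpl3, the markers of other cells and genes of the checks were named after their values were seen. Alternatives were median ratio scaling, no filter, a mean FPKM of at least 1, only the compared groups, DESeq2 1.42.0, a block for the replicate number, and leaving out each mouse. Counts of mice of the same group differed by more than sampling noise in every pair (smallest chi-square per gene 39.7). The replicates are labelled samples of a group, and p-values measure the spread between them.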

Additional observations from a re-analysis of the deposited data

Results flagged for a closer look

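Jag1, the gene of a Notch ligand, had opposite directions in the 2 experiments for irisin against MPTP. Every mouse with irisin pre-treatment was above every MPTP mouse (log2 ratio of mean CPM 0.4211), and every mouse with delayed irisin was below every MPTP mouse (-0.1911). Fyn, a Src family kinase of oligodendrocytes, had opposite directions for MPTP against control, with every MPTP mouse above control in the pre-treatment experiment (0.06343) and below it in the delayed treatment experiment (-0.1295). None of these differences passed edgeR's test, with adjusted p = 0.520 and 0.9995 for Jag1 and 0.924 and 0.599 for Fyn. Groups did not overlap for 14.2% and 10.7% of all genes in the comparisons given for Jag1. For those of Fyn the shares were 11.6% and 16.2%. How many of all genes separated in opposite directions was not counted. The difference between the experiments was not tested for either gene, and 24 genes were looked at in 3 contrasts, 72 checks in all. None of the 9 genes showed such opposite separation.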

How the results depend on the processing

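None of the 9 genes passed the adjusted threshold under any alternative. Of 691 alternative values for their 54 results, 46 changed sign, in 18 results whose log2 fold change was at most 0.109 in size, and the smallest adjusted p was 0.127 (Opalin, MPTP against control of the pre-treatment experiment, DESeq2). The cause of these shifts was not tested.

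Without any filter on low counts, Mag turned to 0.0043 for MPTP against control of the delayed treatment experiment. Leaving out each mouse in turn gave ranges that crossed 0 as follows. For MPTP against control of the pre-treatment experiment they were -0.2046 to 0.1721 for Mbp, -0.218 to 0.1369 for Mobp, -0.0741 to 0.1669 for Olig2 and -0.0539 to 0.0608 for Cspg4. The lists gave, in an alternative chosen after seeing the data, medians of 0.0176 for the myelin membrane genes and 0.0668 for myelin lipid synthesis without control mouse 2, against -0.1826 and -0.1067 with it. Mbp and Mobp turned positive without control mouse 2 and also without MPTP mouse 1 (0.0387 and 0.0241). For irisin pre-treatment against MPTP they were -0.1481 to 0.065 for Mbp, -0.0661 to 0.1326 for Mog, -0.1416 to 0.0777 for Mobp, -0.0765 to 0.0421 for Cnp and -0.213 to 0.0278 for Olig2. For MPTP against control of the delayed treatment experiment they were -0.0825 to 0.0889 for Mag and -0.0722 to 0.0575 for Mobp. For irisin alone they were -0.0989 to 0.0767 for Mbp, -0.0191 to 0.1354 for Mog, -0.1853 to 0.0387 for Mag, -0.054 to 0.1707 for Cnp and -0.0229 to 0.0297 for Cspg4. For Mag they were -0.1409 to 0.0196 for delayed irisin against MPTP and -0.1023 to 0.1218 for the interaction.

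The number of all genes past the threshold moved more. It was 5, 16, 29, 24, 1 and 9 in the order of the contrasts in the report, and 104, 194, 191, 158, 31 and 65 in DESeq2. With only the compared groups it was 10 for MPTP against control in each experiment, 14 for irisin alone and 9 for delayed irisin, and with no filter 2 for delayed irisin. Leaving out each mouse gave 7 to 17, 10 to 26, 16 to 35, 16 to 29, 1 to 7 and 7 to 19.

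Of the other lineage genes, DESeq2 called 1 for MPTP in each experiment (Nkx2-2 in the first, Kcna1 in the second) and 2 for irisin alone (Kcna1 and Nrg1). Leaving out each mouse gave 0 to 1 for irisin pre-treatment, for MPTP in the delayed treatment experiment and for irisin alone. These were Lhfpl3, chosen for naming once its value was known (-0.98, adjusted p = 0.0297 in edgeR) without irisin pre-treatment mouse 3, and Degs1 without control mouse 2 of the delayed treatment experiment (-0.77, adjusted p = 0.00390, and -0.83, adjusted p = 0.00356, edgeR). Cspg4 was not tested in the pre-treatment experiment under the FPKM filter.

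Mice of different groups share replicate numbers. With the number as a replicate block, 2, 8, 17 and 14 genes passed for the first 4 contrasts, Mag had an interaction of 0.0037, and no call on the 9 genes changed. Deviations of same-numbered mice correlated at -0.11 to 0.23 and -0.15 to 0.06, and 5 of 9 and 1 of 12 mice correlated best with their own number. In the delayed treatment experiment same-numbered mice were not more alike (median -0.03 against 0.01 for other numbers). For the pre-treatment experiment (0.01 against -0.01) these values do not settle whether the numbers pair the mice.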
